A study of Mus musculus with 9 samples.

Results

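In round spermatids (RS) of the mouse testis that were cultured for 24 h, 116 genes had higher transcript levels with oxamate and stayed at about the oxamate level when octyl-L-2HG was added with it. They were chosen from the normalized counts of all 9 libraries by a rule on measured values. V, O and B denote a gene's mean over the vehicle, oxamate and oxamate with octyl-L-2HG libraries. A member had a mean over the 9 libraries of at least 100, an O/V ratio of at least 1.35, a B/O ratio from 0.9 to 1.1, and every treated library above every vehicle library. Of the 25128 genes with a normalized count, 10715 reached the mean of 100. Of these, 352 met the O/V minimum with every oxamate library above every vehicle library. B/O lay under 0.9 in 164 of the 352 genes, over 1.1 in 71 and inside the window in the others. Of those inside the window, Jade1 alone was left out, because its libraries with both compounds overlapped vehicle. The fold changes, counts and intervals given below for members therefore describe them and support nothing about a response to either compound, since the same libraries chose them.

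The cells were WT RS by label, and each of 3 groups had 3 libraries. Cells of the first group received vehicle (0.15% DMSO), those of the second 24 mM oxamate in 0.15% DMSO, and those of the third 24 mM oxamate with 0.3 mM octyl-L2HG in 0.15% DMSO. By the methods, RS came from adult C57Bl/6 males in which Stra8-iCre switches on tdTomato in the germ line, and were sorted by tdTomato intensity and forward scatter. The medium of all groups held lactate and pyruvate, no group received octyl-L-2HG without oxamate, and nothing in the labels says that libraries of a group came from separate animals, so errors and p-values measure the spread between these libraries, which may be technical.

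Oxamate is a pyruvate analogue that inhibits lactate dehydrogenases (LDH). In male germ cells the testis isoform LDHC supplies NAD+ for glycolysis and also reduces α-ketoglutarate to L-2-hydroxyglutarate (L-2HG), a competitive inhibitor of many α-ketoglutarate-dependent dioxygenases. Octyl-L-2HG is an ester that enters cells and releases L-2HG, so that the cells of the third group were supplied with L-2HG while LDH was inhibited.

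Promoter sequences are shown for the first 4 members in order of O/V for which a window was found in a RefSeq table (GRCm38.p6), because members that moved together may be compared there with other genes. They are the 250 bases before the annotated start, 5′ to 3′ on the strand of the gene, and capitals mark the CCAAT box (CCAAT), the GC box (GGGCGG) and the short form of the cAMP response element (TGACG), each on either strand. Zfyve28 lies at chr5:34288325-34288574 on the minus strand, Slc26a6 at chr9:108853793-108854042 on the plus strand, Dpy19l1 at chr9:24503141-24503390 on the minus strand, and Fxr2 at chr11:69632721-69632970 on the plus strand.
Zfyve28: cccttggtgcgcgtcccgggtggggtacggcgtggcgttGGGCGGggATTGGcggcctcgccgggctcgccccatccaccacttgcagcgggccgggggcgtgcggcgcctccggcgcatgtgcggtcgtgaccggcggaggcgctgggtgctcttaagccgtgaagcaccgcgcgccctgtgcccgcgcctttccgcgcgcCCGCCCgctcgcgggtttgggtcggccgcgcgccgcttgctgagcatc
Slc26a6: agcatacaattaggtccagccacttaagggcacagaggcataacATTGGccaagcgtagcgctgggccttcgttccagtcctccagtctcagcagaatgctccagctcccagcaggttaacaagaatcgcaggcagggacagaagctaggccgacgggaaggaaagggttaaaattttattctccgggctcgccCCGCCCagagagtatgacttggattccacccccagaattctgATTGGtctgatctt
Dpy19l1: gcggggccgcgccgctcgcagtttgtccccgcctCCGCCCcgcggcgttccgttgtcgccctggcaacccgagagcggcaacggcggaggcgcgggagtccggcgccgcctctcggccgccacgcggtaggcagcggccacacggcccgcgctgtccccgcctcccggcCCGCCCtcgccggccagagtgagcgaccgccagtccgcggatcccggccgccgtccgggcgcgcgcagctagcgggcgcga
Fxr2: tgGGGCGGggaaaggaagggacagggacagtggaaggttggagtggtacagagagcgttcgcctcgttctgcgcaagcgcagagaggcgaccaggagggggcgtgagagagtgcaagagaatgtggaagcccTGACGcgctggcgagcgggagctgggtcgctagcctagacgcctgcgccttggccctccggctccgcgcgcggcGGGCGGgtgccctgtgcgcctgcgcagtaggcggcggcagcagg

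All 4 stretches hold a GC box, and Zfyve28 and Slc26a6 also hold a CCAAT box. With the 50 bases after the start included, a window was found for 98 of the 116 members and for 8212 gene symbols among the 10715 genes with a mean of at least 100. A GC box was in a window of 82.7% of these members, of 61.0% of the genes with a mean of at least 100, and of 35.7% of all 32851 windows in the table. Among the other genes that met the O/V minimum it was in 74.8% of those with B/O under 0.9 and in 77.6% of those with B/O over 1.1. The CCAAT box was in a window of 54.1% of these members, of 44.0% of the genes with a mean of at least 100, and of 37.4% of all windows. Among the other genes that met the O/V minimum it was in 45.8% with B/O under 0.9 and 51.7% with B/O over 1.1. The full cAMP response element (TGACGTCA, which contains the short form on both strands) was in 4 members, which is 4.08%, and in 3.81% of the genes with a mean of at least 100 and 1.79% of all windows. An E-box (CACGTG, which contains the hypoxia core ACGTG) was in 13.3% of members and 11.5% of those genes, the hypoxia core in 34.7% and 28.6%, and a TATA box (TATAAA) in 6.12% and 9.15%. The stress element TGATGNAA was in 2.04% of members and 3.32% of those genes, and the antioxidant element TGACNNNGC in 12.2% and 17.1%. The median GC content of the windows was 62.3% in members and 59.7% in the genes with a mean of at least 100, and its part in the shares of GC boxes was not tested. A match describes letters only, and draws nothing about a factor.

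Depth was similar across libraries, with 32339533 to 39888396 counted reads and size factors from 0.867 to 1.13. RS markers were abundant. Their summed normalized count over 15 genes was 178563 to 180609 with vehicle, 174443 to 183294 with oxamate and 188211 to 190215 with both compounds. The 10 markers of elongating spermatids, protamines and transition proteins among them, summed to 148603 to 150876 with vehicle, 138069 to 143670 with oxamate and 123154 to 129429 with both compounds. By edgeR's quasi-likelihood test 4 of the 10 were lower with oxamate than vehicle, where 1.22% of all genes were. They were Prm1, Prm2, Tnp1 and Tnp2, named after their values were seen. With both compounds 7 were lower than with oxamate, where 8.06% of all genes were. In both comparisons 0 of the 10 were called higher, though the mean counts of Odf1, Gapdhs and Smcp were slightly above vehicle with oxamate. Sums for spermatocytes (11 genes) were 23677 to 26599. Of these 11 genes 2 were higher with oxamate than vehicle (Mybl1 and Piwil1), where 3.97% of all genes were. With both compounds 2 were higher than with oxamate (Mybl1 and Sycp2), where 3.18% of all genes were. All were named after their values were seen, and 0 of the 11 were called lower in either comparison. Without a call, the mean counts of Hormad1, Sycp1, Sycp2, Ccna1, Spo11 and Tex101 were lower with oxamate than vehicle. The sums for spermatogonia (10 genes) were 287 to 310 with vehicle, 323 to 327 with oxamate and 303 to 326 with both compounds. Of these genes 0 were called between oxamate and vehicle. Sertoli cell markers (10 genes, of which 3 had counts enough to be tested) summed to at most 6.67, and those of Leydig cells (8 genes) to at most 42.6. Macrophage markers (10 genes) went from 212 to 258 with vehicle to between 170 and 192 in the treated libraries, endothelial markers (9 genes) from 703 to 761 with vehicle to between 520 and 699, and peritubular myoid markers (8 genes, mostly Actg2) from 7002 to 7307 with vehicle to 6016 to 6156 with both compounds. The part of these cell types in the members' levels was not tested, and in bulk RNA fewer cells of a type and less RNA per cell cannot be told apart.

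Across the 116 members O/V ran from 1.352 to 2.20, with a median of 1.44. It was at least 1.5 in 32 members and at least 2 in 3, Mpdz, Zfyve28 and Slc26a6. B/O ran from 0.901 to 1.099 with a median of 0.977, under 1 in 72 members and over 1 in 44. B/V ran from 1.22 to 2.16 with a median of 1.44. The median member stood at 1.49, 1.44 and 1.43 times its vehicle mean in oxamate libraries 4, 5 and 6, and at 1.45, 1.45 and 1.42 times in libraries 7, 8 and 9 with both compounds. The median O/V of all genes with a mean of at least 100 was 1.00 and their median B/O 1.03. The median rise was of similar size in the 6 treated libraries, and between oxamate and both compounds the rule sets this. Single members differed between libraries of a group, as given below for oxamate library 4.

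**Figure D1:**
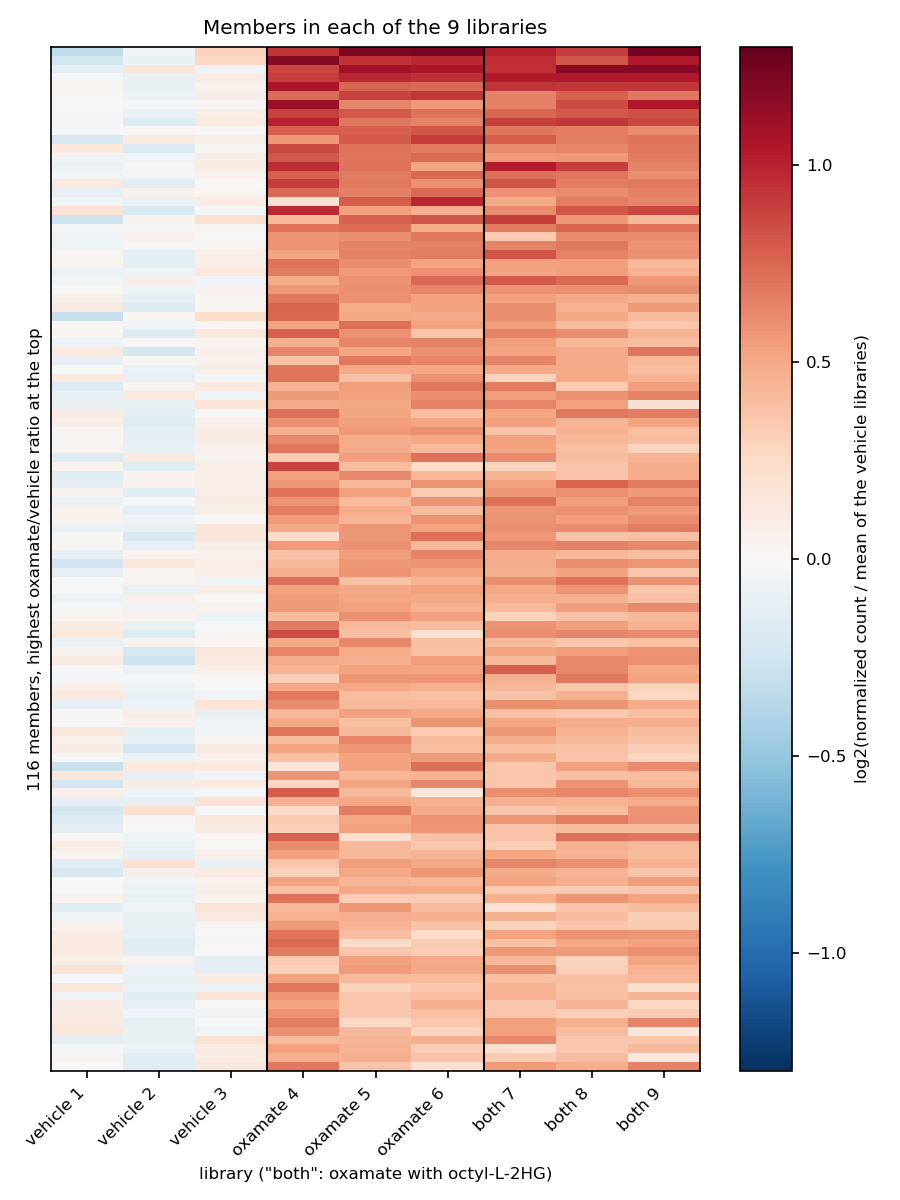
Each row is one of the 116 members and each column a library, coloured by the log2 ratio of its normalized count to the gene's vehicle mean, with the highest O/V at the top. The vehicle columns are near 0 and the 6 treated columns lie above them, with medians of 1.49, 1.44 and 1.43 times the vehicle mean for oxamate and 1.45, 1.45 and 1.42 for both compounds.

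The gap between groups was often narrow. The lowest treated library was 1.01 to 1.73 times the highest vehicle library, with a median of 1.22. The narrowest gap was in Trip10 and the widest in Dpy19l1. The libraries with both compounds overlapped the oxamate libraries in 100 members, lay wholly below them in 13 and wholly above them in 3 (Dpy19l1, Kcnq3 and Slc35f5). Of the genes with a mean of at least 100, 18.3% lay wholly below and 24.4% wholly above. Nothing is read from the members' counts, since the rule sets B/O near 1. Members were of moderate abundance, with vehicle means from 62.4 to 8225 and a median of 324, against 830 for the genes with a mean of at least 100. In 12 members the vehicle mean was under 100, so they reached the mean of 100 only through the treated libraries.

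**Figure D2:**
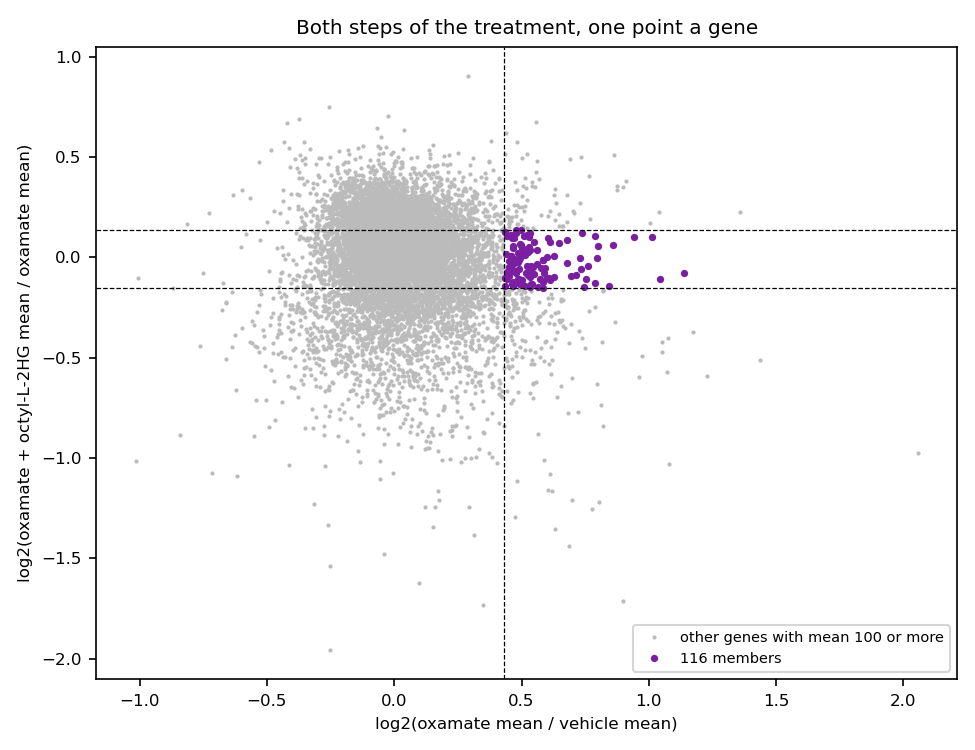
Each point is one of the 10715 genes with a mean of at least 100, placed by its log2 O/V (horizontal axis) and log2 B/O (vertical axis), with the 116 members coloured and the limits of the rule dashed. The members fill the strip between the B/O limits to the right of the O/V minimum and join without a gap onto genes just outside it.

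Genes just outside the limits had much the same values. At the O/V minimum Tspyl1 (1.352) was inside and Sec1 (1.349) outside. At the lower B/O limit Prkch (0.901) was inside and Pnma2 (0.899) outside, and at the upper limit the uncharacterized 3110082I17Rik (1.099) was inside and Atad3a (1.106) outside. At the mean of 100, Mss51 (105.7) was inside and Palb2 (93.8) outside.

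In the fit over 25128 genes with edgeR's quasi-likelihood test and Benjamini-Hochberg adjustment at 0.05, 112 of the 116 members were called higher with oxamate than with vehicle, where 3.97% of all genes were called higher and 1.22% lower. With both compounds against vehicle 114 members were called higher, where 7.48% of all genes were higher and 10.6% lower. Against oxamate alone, 3.18% of all genes were called higher and 8.06% lower with both compounds, and 0 members were called by edgeR or by DESeq2, with 4 at an unadjusted p under 0.05 by edgeR, where 23.6% of all genes had one. These counts follow from the rule, and nothing is read from them. Scaling by total counts moved the split of all genes called between both compounds and oxamate from 798 higher and 2025 lower to 421 and 2516, and against vehicle from 1879 and 2655 to 1231 and 3367. Other settings moved it the other way. Against oxamate DESeq2 called 1234 genes higher and 1637 lower, and edgeR without a filter beyond 1 count called 1429 and 1797. Against vehicle the same settings gave 2134 and 2020, and 2690 and 2421, so that more genes were higher than lower. With scaling by total counts the rule gave 95 genes, of which 72 were among the 116. The members without a call for oxamate were Tmtc3, Relb, Zfp316 and Elmo2, and those without one for both compounds were Pygo2 and Dtx1, all named after their values were seen. The median standard error of a member's log2 change was 0.094 for oxamate against vehicle and 0.092 for both compounds against oxamate.

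The second step was measured to within a moderate range. The 95% interval of the log2 difference between both compounds and oxamate had a median width to either side of 0.19, and its median bounds were 0.834-fold and 1.11-fold. It included 0 in 112 members and lay below 0 in 4 (Glyr1, Slc25a30, Vash2 and Cpsf4l), where it lay below 0 in 15.1% of all genes and above 0 in 8.5%. In 0 members did it include a fall as large as the rise with oxamate. The rule sets a minimum rise and keeps B/O in a narrow window, so nothing is read from these counts of members. An interval that includes 0 does not show that octyl-L-2HG left a gene unaltered.

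**Figure D3:**
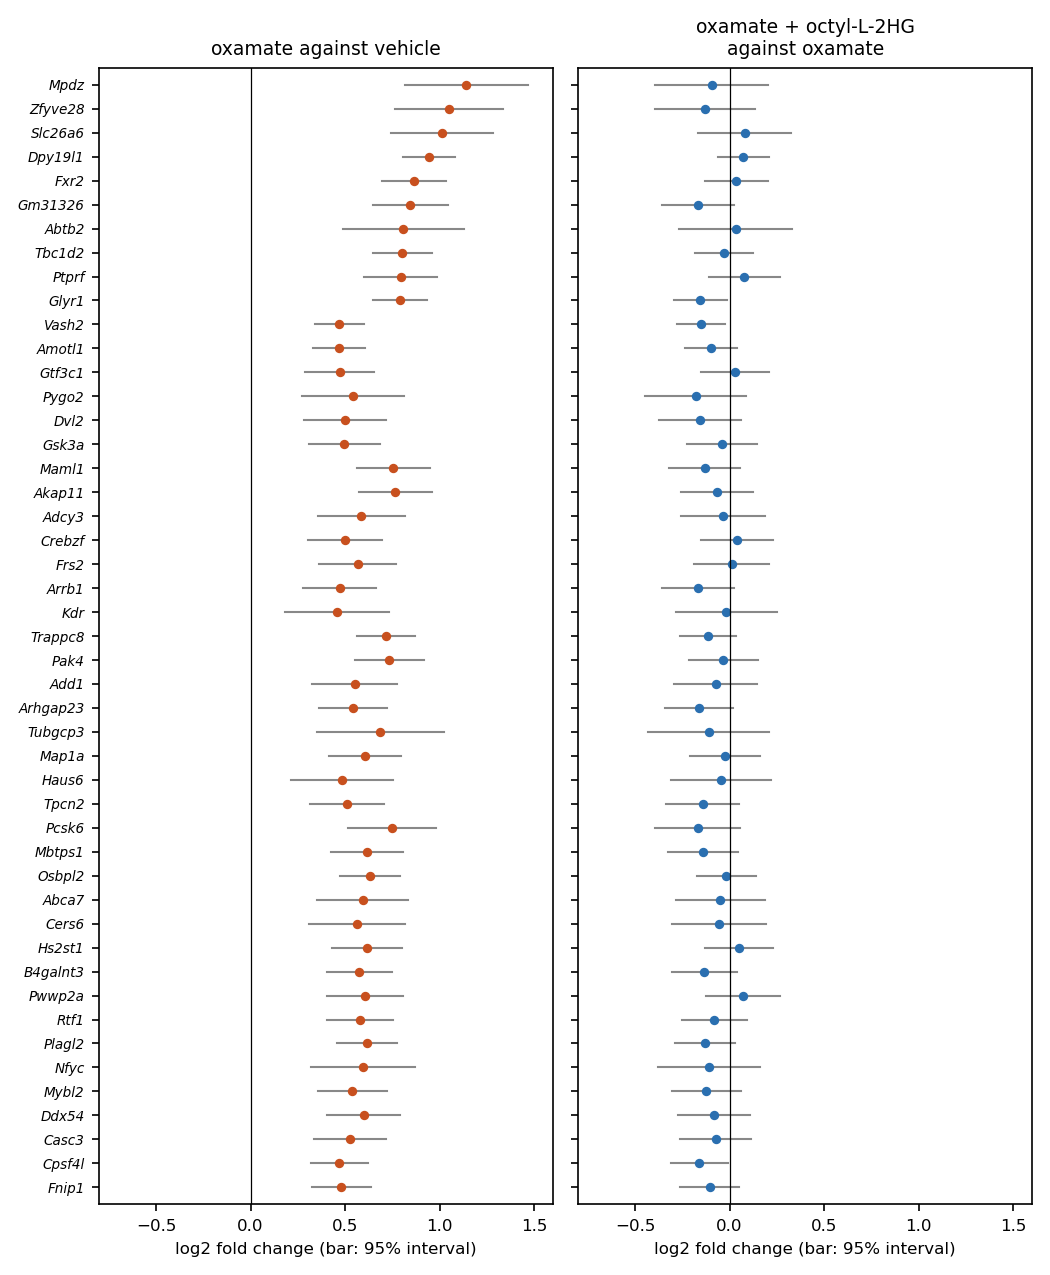
Fitted log2 fold changes of 47 members named by rule, with bars for 95% intervals, for oxamate against vehicle on the left and for both compounds against oxamate on the right. The left bars lie above 0, and the right bars straddle 0 in all but Glyr1, Vash2 and Cpsf4l, which lie below it.

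Oxamate library 4 stood apart from libraries 5 and 6, and this bears on which genes are members. The chi-square per degree of freedom between libraries was 1.98 for libraries 5 and 6, 16.7 for 4 and 5 and 20.7 for 4 and 6. Between vehicle libraries it was 5.86 to 10.7, with library 1 the farthest from the others, and between those with both compounds 2.27 to 6.42. Library 4 was the highest oxamate library in 58 members, which is 50%, against 45.8% of the genes with a mean of at least 100. In 43 members library 4 was the lowest. Its ratio to the mean of libraries 5 and 6 ran from 0.619 (Tubgcp3) to 1.47 (Pygo2). It was 1.2 or more in 22 members, which is 19.0%, against 14.8% of the genes with a mean of at least 100, and 1/1.2 or less in 10 members (8.62% against 14.5%). The 22 had a median transcript GC content of 57.6% and a median B/O of 1.06, the 10 had 44.3% and 0.970. The same ordering of GC was seen over all genes with a mean of at least 100, at 54.7% and 43.3%. The part of GC content in the members' values was not tested.

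Without library 4 the rule gave 97 genes, of which 70 were among the 116. The 46 members that dropped out had an O/V under the minimum in 25 cases, a B/O over the window in 18 and a B/O under it in 13, and some failed on both. Over the 116 members the ratios without library 4 ran from 1.23 to 2.35 for O/V, with a median of 1.43, and from 0.818 to 1.25 for B/O, with a median of 0.985. In the edgeR fit without library 4, 8 members were called between both compounds and oxamate, 4 in each direction, where 6.38% of all genes were called higher and 11.5% lower. Lower with both compounds were Tmem178b, Vash2, Naif1 and Fnip1, and higher were Gtf3c1, Map2k3, Qsox1 and Pcnx3, all named after their values were seen. Pcnx3 had the largest difference, a log2 change of 0.29 (SE 0.076). Membership was steadier without any other library: from 89 to 110 of the 116 members remained, and 40 remained without each of the 9 libraries in turn.

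**Figure D4:**
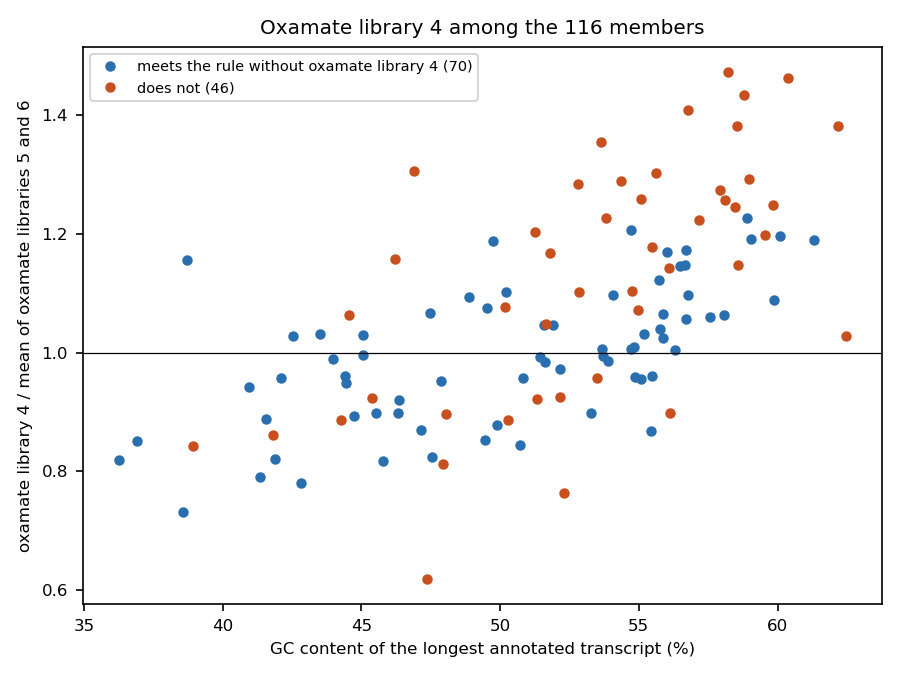
Each point is a member, placed by the GC content of its longest annotated transcript in percent (horizontal axis) and by the ratio of oxamate library 4 to the mean of oxamate libraries 5 and 6 (vertical axis). Colours separate the 70 members that meet the rule without library 4 from the 46 that do not, and GC-rich transcripts tend to lie above the line at 1.

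The 10 members with the largest O/V have varied roles. Mpdz, a scaffold of PDZ domains at cell junctions, had 49.8, 60.7 and 76.9 normalized counts in the vehicle libraries, 119, 146 and 147 in oxamate and 126, 116.4 and 148 in both compounds. Zfyve28, an endosomal FYVE-domain protein that restrains EGF receptor signalling, had normalized counts of 67.5, 74.9 and 95.2 with vehicle, against 181, 152 and 157 with oxamate and 154, 138 and 163 after both compounds. Slc26a6, an anion exchanger for chloride, bicarbonate and oxalate, had 70.2, 85.3 and 74.2 normalized counts in the vehicle libraries, 140.0, 163 and 160.1 in oxamate and 148, 174 and 174 in both compounds. In each of the 3 the treated libraries were far above vehicle and overlapped each other. The O/V of Mpdz was 2.20, and the fitted log2 change 1.14 (SE 0.16). Zfyve28 had an O/V of 2.06 and Slc26a6 of 2.015. Without library 4 the B/O of Mpdz was 0.887, just under the window.

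Dpy19l1, a C-mannosyltransferase of the endoplasmic reticulum, was abundant at normalized counts of 2315, 2177 and 2504 with vehicle, against 4343, 4586 and 4492 with oxamate and 4774, 4797 and 4809 after both compounds. Its 3 libraries with both compounds were almost equal and lay just above the oxamate libraries. O/V was 1.92 and B/O 1.07, and the interval of the log2 difference for the second step was -0.06 to 0.21. Fxr2, an RNA-binding protein of the fragile X family, had 1889, 1739 and 1899 normalized counts in the vehicle libraries, 3852, 3108 and 3076 in oxamate and 3507, 3496 and 3483 in both compounds. Library 4 was the highest of the 9 in Fxr2, and without it O/V was 1.68 and B/O 1.13, which is over the window. Tbc1d2, a GTPase-activating protein for Rab7, had normalized counts of 906, 866 and 984 with vehicle, against 1687, 1601 and 1499 with oxamate and 1545, 1592 and 1632 after both compounds, with O/V 1.74 and B/O 0.996. The both-compound range of Tbc1d2 lay inside its oxamate range.

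Glyr1, a nucleosome-binding partner of the histone demethylase KDM1B, had 888, 914 and 898 normalized counts in the vehicle libraries, 1541, 1544 and 1573 in oxamate and 1449.8, 1428 and 1383 in both compounds. The 3 groups of Glyr1 did not overlap, and both compounds gave an intermediate level near that of oxamate, with a second-step interval of -0.29 to -0.016. Ptprf, a receptor tyrosine phosphatase of the LAR type, had normalized counts of 674, 594 and 728 with vehicle, against 1329.9, 1073 and 1044 with oxamate and 1233, 1260.0 and 1219 after both compounds. Abtb2, an ankyrin and BTB domain protein, had 82.6, 80.6 and 83.3 normalized counts in the vehicle libraries, 179, 128 and 122 in oxamate and 129, 148 and 169 in both compounds. In both Ptprf and Abtb2 library 4 was well above libraries 5 and 6, and without it B/O was 1.17 and 1.19, outside the window. Gm31326, a provisional single-exon annotation on chromosome 9, had normalized counts of 187, 179 and 199.6 with vehicle, against 312, 346 and 356 with oxamate and 295, 320.5 and 303 after both compounds, and its B/O of 0.906 became 0.872 without library 4.

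**Figure D5:**
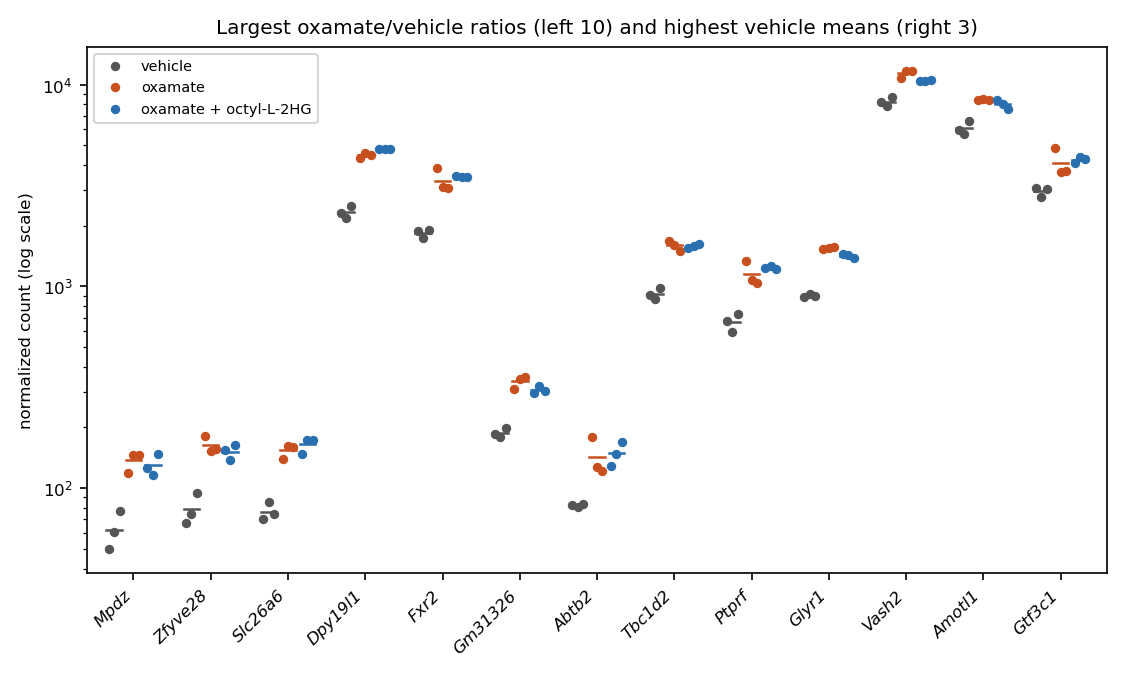
Normalized counts (log axis) in each library for the 10 members with the largest O/V and the 3 with the highest vehicle mean, in the colours of the 3 groups, with a bar at each group's mean. In every gene the 6 treated points lie above the 3 vehicle points, and in Fxr2, Abtb2, Ptprf and Gtf3c1 one oxamate point, library 4, lies above the other two.

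The 3 members with the highest vehicle means were Vash2, Amotl1 and Gtf3c1. Vash2, a tubulin carboxypeptidase that removes the terminal tyrosine of α-tubulin, had 8194, 7796 and 8686 normalized counts in the vehicle libraries, 10757, 11628 and 11690.4 in oxamate and 10399, 10363 and 10486 in both compounds. Per kilobase of its longest transcript it was also the highest member, at 2040.0 normalized counts in vehicle, followed by Nrm, a nuclear envelope protein, at 1802 (named after its value was seen). With both compounds Vash2 lay between the ranges of oxamate and vehicle in each library, and its second-step interval was -0.28 to -0.022. Amotl1, an angiomotin that binds YAP and actin-linked junction proteins, had normalized counts of 5939.6, 5710.1 and 6623 with vehicle, against 8358, 8439.8 and 8405 with oxamate and 8373, 8027 and 7600.4 after both compounds. Gtf3c1, the largest subunit of the RNA polymerase III factor TFIIIC, had 3062, 2768 and 3046 normalized counts in the vehicle libraries, 4834, 3708 and 3714 in oxamate and 4081, 4399 and 4258 in both compounds. Library 4 was the highest oxamate library in Gtf3c1, and without it O/V was 1.25, under the minimum, as it was not for Vash2 (1.42) or Amotl1 (1.38). The B/O of Vash2 without library 4 was 0.893, just under the window.

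Members were also grouped by role, in 17 gene lists made with earlier results of these data known. The lists hold 529 genes that were tested, of which 96 were higher with oxamate than vehicle and 5 lower by edgeR, where 3.97% of all genes were higher and 1.22% lower. The rule chose 57 of the 529 as members for being higher, and 40 of the 96 were not members, so the list counts are not read as an excess. The 5 lower genes were Jag1 (log2 change -0.47), Pde4d (log2 change -0.88), Met (a mean of 11.9 normalized counts with vehicle and 0.683 with oxamate), Trappc2l (log2 change -0.28) and Abca1 (log2 change -1.10), named after their values were seen. With both compounds against oxamate 19 of the 529 were higher and 38 lower, where 3.18% and 8.06% of all genes were. Counts for single lists below are of genes higher with oxamate than vehicle, and median log2 changes are for that comparison, where the median of all 25128 genes was -0.01.

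Receptors and their signal relays were among the members. Of 37 Wnt genes tested 9 were higher, with a median of 0.29. The 3 members were Dvl2, which relays the signal from Frizzled receptors, Gsk3a, a kinase of the β-catenin destruction complex that also acts in sperm motility, and Pygo2, a coactivator of β-catenin that is also required late in spermatid development. Gsk3a had normalized counts of 2581, 2126 and 2270.3 with vehicle, against 3768, 3108 and 2927 with oxamate and 3457, 3182 and 3078 after both compounds. Dvl2 had 270.1, 231 and 238 normalized counts in the vehicle libraries, 395, 326 and 320.1 in oxamate and 318, 339 and 298 in both compounds. Pygo2 had normalized counts of 266, 232 and 274 with vehicle, against 473, 341 and 303 with oxamate and 313, 333 and 360.4 after both compounds. In each of the 3 genes library 4 was the highest of the 9, and without it O/V was 1.30 in Gsk3a, 1.31 in Dvl2 and 1.25 in Pygo2, all under the minimum. Dvl2 and Gsk3a also share annotated exon bases with other genes on the opposite strand.

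Of 27 Notch genes 1 was higher, the member Maml1, and the median was 0.01. Maml1, the coactivator that joins the cleaved Notch receptor on DNA, had 342, 274 and 314 normalized counts in the vehicle libraries, 563, 507 and 496 in oxamate and 475, 483 and 497 in both compounds, with O/V 1.68 and B/O 0.929. Its treated libraries lay in a narrow band well above vehicle. Dtx1, a Notch-associated ubiquitin ligase outside the list that was named after its values were seen, had normalized counts of 128, 114 and 134 with vehicle, against 172, 173 and 162 with oxamate and 157, 165 and 138 after both compounds, near the O/V minimum at 1.35.

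Of 41 genes of cAMP and protein kinase A signalling 6 were higher, with a median of 0.05. Akap11, which anchors protein kinase A, had 542, 667 and 650.2 normalized counts in the vehicle libraries, 918, 1076 and 1161 in oxamate and 1071, 983 and 1009 in both compounds. Adcy3, an adenylyl cyclase that makes cAMP, had normalized counts of 172, 136 and 165 with vehicle, against 245, 225 and 238 with oxamate and 226, 221 and 255 after both compounds. Crebzf, a bZIP partner of the CREB and ATF family, had 294, 299 and 300.4 normalized counts in the vehicle libraries, 374, 445 and 443 in oxamate and 411, 479.5 and 428 in both compounds. In each of these the oxamate and both-compound ranges overlapped, with B/O of 0.971, 0.991 and 1.04, and each stayed a member without library 4. Of 30 growth factor receptors and adaptors 5 were higher, with a median of 0.15: the members Frs2, Arrb1 and Kdr, and Gab2 (log2 change 0.39) and Insr (log2 change 0.29), both named after their values were seen. Frs2, a docking protein of FGF receptors, had normalized counts of 184, 217 and 193 with vehicle, against 292, 285 and 300.4 with oxamate and 289, 299.7 and 309.9 after both compounds. Kdr, a VEGF receptor known best from endothelial cells, had 105.7, 89.1 and 86.1 normalized counts in the vehicle libraries, 115, 138 and 133 in oxamate and 143, 116.4 and 128 in both compounds. Among the endothelial markers, with vehicle, oxamate and both compounds in that order, mean normalized counts were 413, 353 and 292 for Vwf, 178, 174 and 135 for Flt1, and 58.9, 71.4 and 53.8 for Tek. Those of Pecam1 were 23.4, 32.4 and 27.5, and those of Cdh5 21.0, 26.5 and 13.1. The part of endothelial cells in the level of Kdr was not tested. Arrb1, a β-arrestin that desensitizes G-protein-coupled receptors, had a mean of 519 ± 59.4 in vehicle, 717 ± 45.5 in oxamate and 649 ± 51.4 with both compounds (SD, n = 3). The lowest library of Arrb1 with both compounds was 1.01 times its highest vehicle library, and without library 4 its B/O was 0.893.

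Of 69 regulators of Rab proteins and vesicle traffic 7 were higher, and these were the 7 members of that list. The median was 0.07. Besides Zfyve28 and Tbc1d2, Trappc8, a subunit of the TRAPP complex that activates Rab proteins at the Golgi, had normalized counts of 837, 942 and 917 with vehicle, against 1500.4, 1419.6 and 1497 with oxamate and 1359, 1379 and 1414 after both compounds. Exoc6b, an exocyst subunit, had a mean of 196 ± 7.47 in vehicle, 280.1 ± 18.5 in oxamate and 254 ± 11.4 with both compounds (SD, n = 3). Rab11fip3, a Rab11 effector of recycling endosomes, had a mean of 580.2 ± 63.7 in vehicle, 792 ± 64.6 in oxamate and 781 ± 19.9 with both compounds (SD, n = 3). Rabgef1, an exchange factor for Rab5, and Tgfbrap1, a subunit of the endosomal CORVET tether, had O/V of 1.40 and 1.42. The 7 genes thus cover early endosomes, recycling, the Golgi and exocytosis. Without library 4, Exoc6b (B/O 0.875) and Rab11fip3 (O/V 1.30) no longer met the rule. Pheta1, an endocytic adaptor, and Rufy1, a Rab effector of early endosomes, are members outside the list that were named after their values were seen, with O/V of 1.60 and 1.38.

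Of 53 regulators of the actin cytoskeleton 13 were higher, with a median of 0.11, and 8 were members. Pak4, a kinase downstream of Cdc42, had 928, 772 and 858 normalized counts in the vehicle libraries, 1587, 1368 and 1287 in oxamate and 1506, 1351 and 1372 in both compounds. Add1, which caps actin and links it to spectrin, had normalized counts of 141, 119 and 140.1 with vehicle, against 201, 193 and 191 with oxamate and 193, 181 and 192 after both compounds. Arhgap23, a GTPase-activating protein, had 822, 748 and 835 normalized counts in the vehicle libraries, 1302, 1119 and 1069.9 in oxamate and 1150.0, 1054 and 979 in both compounds. Treated libraries of Add1 spanned only 181 to 201, while those of Arhgap23 spanned 979 to 1302. Tesk2, a testis-rich kinase that phosphorylates cofilin, had a mean of 2828 ± 179 in vehicle, 3866 ± 166 in oxamate and 3743 ± 69.2 with both compounds (SD, n = 3). Cotl1, an F-actin-binding protein, Trip10, an F-BAR protein, and Frmd4a, a FERM-domain scaffold, had O/V of 1.37, 1.357 and 1.35. Pak4 shares annotated exon bases with Samd4b and Tesk2 with Ccdc163 on the same strand, so reads there could belong to either gene. Of the actin members, Tesk2, Cotl1 and Trip10 fell under the O/V minimum without library 4.

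Of 32 genes for microtubule nucleation and binding 6 were higher, with a median of -0.02, and 4 were members, Vash2 included. Tubgcp3, a core subunit of the γ-tubulin complex, had normalized counts of 75.5, 73.0 and 83.3 with vehicle, against 88.6, 134 and 152 with oxamate and 109, 122 and 119.8 after both compounds. Its library 4 was close to vehicle and its other oxamate libraries were well above, so that B/O was 0.818 without library 4. Map1a, a microtubule-associated protein, had 199.9, 192 and 209 normalized counts in the vehicle libraries, 295, 305 and 311 in oxamate and 299.8, 304 and 307 in both compounds. The 6 treated libraries of Map1a lay between 295 and 311. Haus6, a subunit of augmin, which seeds new microtubules on old ones, had normalized counts of 122, 166 and 142 with vehicle, against 169.6, 227 and 202 with oxamate and 184, 190.2 and 214 after both compounds, with its lowest oxamate library just above its highest vehicle library.

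Of 30 ion transporters and channels 5 were higher, and all 5 were members. The median was 0.05. Slc26a6 is described above. Tpcn2, an endolysosomal cation channel, had 221, 239.8 and 237 normalized counts in the vehicle libraries, 327, 358 and 305 in oxamate and 311, 297 and 305 in both compounds. Tmem38b, a potassium channel of the endoplasmic reticulum that supports calcium release, had a mean of 150.3 ± 11.3 in vehicle, 207 ± 14.2 in oxamate and 201 ± 14.5 with both compounds (SD, n = 3), and Slc30a1, which exports zinc, had O/V 1.3599. The treated ranges of Tmem38b and Tpcn2 overlapped. Slc30a1 did not meet the O/V minimum without library 4 (1.29). Kcnq3, a voltage-gated potassium channel, Slc25a30, a mitochondrial carrier, and Slc35f5 are members outside the list, named after their values were seen. Kcnq3 had normalized counts of 166, 164 and 195 with vehicle, against 246, 261 and 251 with oxamate and 266, 269 and 277 after both compounds. Its libraries with both compounds lay above all oxamate libraries, by little.

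Proteases, lipid genes and glycan enzymes also held members. Of 17 proprotein convertases, site proteases and their substrates 3 were higher, with a median of 0.27: Pcsk6, Mbtps1 and Srebf2 (log2 change 0.39, named after its value was seen). Pcsk6, which cleaves growth factor precursors of the TGF-β family, had 101.3, 102 and 111 normalized counts in the vehicle libraries, 183, 169 and 174 in oxamate and 154, 154 and 168 in both compounds. Mbtps1, the site-1 protease that releases SREBP factors in the Golgi, had normalized counts of 301, 270.1 and 312 with vehicle, against 479, 448 and 422 with oxamate and 427, 427 and 394 after both compounds. Both had B/O under 1, at 0.904 and 0.925. Of 30 genes of ceramide synthesis and lipid transfer 4 were higher, with a median of 0.12: Osbpl2, Abca7, Cers6 and Osbpl11 (log2 change 0.42, named after its value was seen). Osbpl2, an oxysterol-binding lipid carrier, had 449, 472 and 477 normalized counts in the vehicle libraries, 698, 728 and 732 in oxamate and 727, 747 and 697 in both compounds. Cers6, a ceramide synthase, had normalized counts of 101.3, 117 and 123 with vehicle, against 155, 166 and 182 with oxamate and 181, 144 and 166 after both compounds. Abca7, a lipid exporter, had a mean of 175 ± 18.6 in vehicle, 263 ± 37.7 in oxamate and 260.3 ± 17.5 with both compounds (SD, n = 3). The treated ranges of all 3 lipid members overlapped, and all 3 met the rule without library 4.

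Of 35 enzymes of glycans and protein glycosylation 7 were higher, with a median of 0.09, and 5 were members. Hs2st1, a heparan sulfate sulfotransferase, had 406, 363 and 422 normalized counts in the vehicle libraries, 565, 626 and 631 in oxamate and 701, 621 and 601 in both compounds. B4galnt3, which adds N-acetylgalactosamine to glycans, had normalized counts of 502, 469 and 526 with vehicle, against 811, 705 and 708 with oxamate and 703, 702 and 661 after both compounds. Pgap4, which adds the same sugar to GPI anchors, had O/V 1.39 and Tmtc3, an O-mannosyltransferase for cadherins, 1.40. Tmtc3 was not called for oxamate, and its lowest oxamate library, number 4, was close to its highest vehicle library. Members of redox folding outside the list were P4hb, a protein disulfide isomerase and subunit of collagen prolyl hydroxylase, and Qsox1, a sulfhydryl oxidase, both named after their values were seen. P4hb had 273, 279.6 and 267 normalized counts in the vehicle libraries, 448, 356 and 374 in oxamate and 416, 446 and 412 in both compounds. Qsox1 had normalized counts of 2380.3, 1972 and 2168 with vehicle, against 3462, 2769 and 2733 with oxamate and 3211, 3188 and 3299 after both compounds. Library 4 was the highest of the 9 in both, and without it their B/O was 1.16 and 1.18.

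Chromatin and transcription genes made up another group. Of 36 genes of NuRD, PBAF and nucleosome binding 10 were higher, with a median of 0.13, and 6 were members. Pwwp2a, which binds H2A.Z nucleosomes, had 228, 244 and 228 normalized counts in the vehicle libraries, 325, 351 and 388 in oxamate and 404, 389.6 and 344 in both compounds. Rtf1, a PAF1 complex protein for RNA polymerase II elongation and H2B ubiquitination, had normalized counts of 1003, 1089.9 and 1115 with vehicle, against 1397, 1721 and 1665 with oxamate and 1661, 1503 and 1442 after both compounds. Gatad2a, a subunit of NuRD, had 2786, 2518 and 2948 normalized counts in the vehicle libraries, 4247, 3831 and 3907 in oxamate and 3987, 3709.5 and 3661 in both compounds. None of the 3 had both-compound libraries wholly apart from oxamate. Pbrm1, the polybromo subunit of PBAF, had O/V 1.44, and Zgpat, a repressor that recruits NuRD, 1.40. The 9 libraries of Zgpat fell into 3 groups without overlap. Pbrm1 had a B/O of 0.897 without library 4, just under the window.

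Of the 7 NF-Y, MYB and PLAG factors tested 5 were higher, with a median of 0.36: the members Plagl2, Nfyc and Mybl2, with Mybl1 (log2 change 0.30), which is also on the list of spermatocyte markers, and Nfya (log2 change 0.36), both named after their values were seen. Plagl2, a zinc finger factor, had normalized counts of 798, 807 and 926 with vehicle, against 1349, 1241 and 1271 with oxamate and 1209, 1229 and 1153 after both compounds. Nfyc, a subunit of the NF-Y factor that binds the CCAAT box, had 89.7, 113 and 129 normalized counts in the vehicle libraries, 186, 157 and 156 in oxamate and 168, 157 and 147 in both compounds. Mybl2, known for cell cycle genes, had normalized counts of 346, 394 and 402 with vehicle, against 553, 585 and 514 with oxamate and 522, 492 and 531 after both compounds. Each met the rule without library 4. The CCAAT box was in 54.1% of the members' promoter windows, as given above, and no relation to Nfyc was tested. Other nuclear members, named after their values were seen, were Spindoc, which binds the histone reader SPIN1, Morc3, an ATPase of nuclear bodies, and Relb, an NF-κB subunit. Morc3 had 293, 275 and 282 normalized counts in the vehicle libraries, 417, 385 and 424 in oxamate and 425, 412 and 435 in both compounds. Spindoc had O/V 1.45 and Relb 1.39, and the O/V of Relb was 1.23 without library 4.

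Of 32 genes of mRNA processing, export and surveillance 8 were higher, with a median of 0.10, and 3 were members. Casc3, a core protein of the exon junction complex, had normalized counts of 255, 239 and 272 with vehicle, against 368, 363 and 368 with oxamate and 358, 382 and 327 after both compounds. Ddx54, a DEAD-box RNA helicase, had 616, 504 and 579.7 normalized counts in the vehicle libraries, 957, 790.2 and 817 in oxamate and 864, 772 and 831 in both compounds. Cpsf4l, a relative of a polyadenylation factor subunit, had normalized counts of 1489, 1342 and 1476 with vehicle, against 2113, 1958 and 1870.2 with oxamate and 1761, 1837 and 1817 after both compounds. Cpsf4l was lower with both compounds than oxamate in every library, its second-step interval was -0.31 to -0.010, and its O/V was 1.33 without library 4. Casc3 shares exon bases with Msl1 on the same strand. Of 20 genes of folliculin, mTORC1 and AMPK 2 were higher, with a median of 0.03: Rragc (log2 change 0.64, named after its value was seen) and the member Fnip1. Fnip1, a partner of folliculin, had 2258, 2467 and 2656 normalized counts in the vehicle libraries, 3045, 3553 and 3672 in oxamate and 3187, 3269 and 3258 in both compounds, and without library 4 its B/O was 0.896.

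Lists closest to the compounds held no member. For 12 genes of lactate and L-2HG enzymes the median was -0.05. Of 23 targets of the integrated stress response 4 were higher, Atf5 (log2 change 0.66), Chac1 (log2 change 1.18), Fgf21 (log2 change 0.85) and Sesn2 (log2 change 0.42), all named after their values were seen, with a median of 0.13.

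Features that the rule did not use are described here with no test. Of the 116, 112 are protein coding, which is 96.6% against 85.9% of the genes with a mean of at least 100. Among the other genes that met the O/V minimum it was 91.5% with B/O under 0.9 and 98.6% with B/O over 1.1. The members lie on all 19 autosomes. The X chromosome, which holds 2.56% of the genes with a mean of at least 100, holds 0 of the 116. It holds 3.05% of the genes with B/O under 0.9 and 0 of the 71 with B/O over 1.1. The members' longest annotated transcripts had a median of 4384 bases, against 3002 for the genes with a mean of at least 100, and a GC content of 52.8% against 48.6%. The genes with the same O/V minimum had medians of 4012 bases and 51.5% where B/O was under 0.9, and of 3800 bases and 55.0% where it was over 1.1. All 3 classes of genes that met the O/V minimum thus had longer and more GC-rich transcripts at the median than the genes with a mean of at least 100. A median of 21 exons was annotated per member, against 17 for the genes with a mean of at least 100. It was 16 for the genes with B/O under 0.9 and 25 for those with B/O over 1.1. These are descriptions over genes, which are not replicates, and GC content also moved with oxamate library 4 as given above.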

How the data were processed

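RNA of RS cells was sequenced after poly(A) selection with a stranded kit. The authors trimmed the reads with cutadapt 2.10, aligned them with TopHat2 2.1.1 and deposited for each gene a read count from HTSeq 2.01, per the submitters' processing notes (build GRCm39). The strand setting of the counting is not given in the sources used here, and the sequencing instrument differs between labels and methods. The authors also deposited a normalized count signal, in which each library's counts are scaled by its DESeq2 1.36.0 size factor. The members were found on that signal, and no column of values went unused. No groups beyond those of the labels were used.

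Genes whose counts summed to 10 or more over the 9 libraries (25128) were fitted with edgeR 4.0.16 in R 4.3.3 (TMM scaling, group as the only term, robust quasi-likelihood test, Benjamini-Hochberg adjustment, threshold 0.05), and the fit was tested on simulated data. DESeq2 1.42.0, other scalings and filters, fits of only 2 groups, other limits of the rule and each library left out in turn were the alternatives. Transcript length, GC content, exons and biotype came from a GENCODE annotation of another build, matched by gene identifier, and promoters from RefSeq (GRCm38.p6), matched by symbol. Where 20 members share annotated exon bases with another gene of mean 100 or more (3 on the same strand, 18 on the opposite strand), the counting could have given shared reads to the other gene or discarded them, and the same holds for close paralogs.

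The members, gene lists, motifs and the rule for names were chosen with earlier results of these data known. Named members are the 10 with the largest O/V, the 3 with the highest vehicle mean, up to 3 per role list by O/V, and those nearest each limit, and others are named as chosen after their values were seen. Other members of a role list than its first 3 were also named after their values were seen. Intervals cover the spread between these libraries. Some genes that these rules cover are not reported here.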

Additional observations from a re-analysis of the deposited data

How the results depend on the processing

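No paired analysis was possible because the groups share no replicate number in the labels. The number of members was 116 and rested on the limits: it was 378 with an O/V minimum of 1.2, 32 with 1.5, 220 with a B/O window of 0.8 to 1.2 and 49 with a window 2 times narrower than that of the rule. A mean minimum of 50 gave 135 genes and one of 200 gave 87. TMM scaling gave 114 genes, of which 100 were among the 116. Leaving out each library in turn gave 97 to 154 genes. Of the 116 members, 30 met the rule under both other scalings and without each library. The genes called between oxamate and vehicle numbered 1303, 745 with only the 2 groups compared, and 659 (without vehicle library 2) to 2288 (without oxamate library 4) with a library left out. Between both compounds and oxamate 2823 genes were called, and 1396 (without library 7 of both compounds) to 4415 (without oxamate library 4) with a library left out, with 1429 without oxamate library 5 and 1465 and 1742 without libraries 8 and 9. Between both compounds and vehicle the count of 4534 became 2970 (without library 7) to 6194 (without oxamate library 4). Members called between both compounds and oxamate numbered 0, 1 with total count scaling, and 0 to 8 with a library left out. The cause of these moves was not tested. Members called for oxamate against vehicle stayed between 96 and 116 over all alternatives, and for both compounds against vehicle between 98 and 115. Of 2160 fold changes of the 48 named members under 15 alternatives, 2136 moved by less than the replicate SD, and 24 moved by more, 6 of these without oxamate library 4. With 3 libraries a group, the 95% interval of a member's log2 change between both compounds and oxamate reached a median of 0.19 to either side.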
